A study of Mus musculus with 12 samples.

Results

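Gene expression was measured on oligonucleotide arrays in whole hearts of mice at postnatal day 8, and 228 genes were described whose level in 1 of the 4 heart samples, Control 1, lay apart from the other 3. The mutant mice carried a conditional mutation of Salvador (Salv CKO), the gene Sav1, and the controls were labelled wild-type. All animals had the C57bl/6 X 129 hybrid background. Each group had 2 biological samples, and RNA of each sample was labelled with Cy5 and hybridised to 3 technical arrays, giving 12 arrays. The sources used here do not give the Cre driver, the deleted part of the gene or whether a sample was 1 heart or a pool, and the source label names embryonic heart although the stage label gives postnatal day 8. Sav1 itself had a log2 level of 8.04 in Salv CKO 1 and 8.50 in Salv CKO 2, while Control 1 had 8.74 and Control 2 had 8.08. The groups overlapped, with a Salv CKO minus Control difference of -0.14 and a standard error of 0.34 (adjusted p = 0.998, limma), and the sources used here do not tell whether the probe lies in the deleted part.

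The members were chosen by their measured values. Levels are log2(normalised intensity + 1), with the median of the 3 arrays taken for each sample and the brightest probe for each of 17742 named genes. A gene was a member if its highest sample level was 6 or more, if Salv CKO 1, Salv CKO 2 and Control 2 lay within a range under 0.5, and if Control 1 lay more than 1 away from their mean. Of 11478 genes that reached the level of 6, 228 met the rule, which is 1.99%. In 180 of them Control 1 was lower than the other 3 samples and in 48 it was higher. In 11 of the 48 higher members (2610044O15Rik8, Cnnm4, Exoc8, Foxo3, L1td1, Miat, Nmnat3, Pcx, Pou5f2, Susd5 and Zbtb38) the other 3 samples all lay below 6, so these passed the level condition through Control 1 alone and had to be higher there. In 53 of the 180 lower members Control 1 itself lay below 6. These passed the level condition through the other samples alone and had to be lower in Control 1. Because this rule used the levels themselves, the distance of Control 1 from the other samples is given below as a description, without a test.

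The heart at postnatal day 8 holds muscle cells that are leaving the cell cycle, together with fibroblasts, endothelial cells, smooth muscle cells and macrophages. Salvador is a scaffold protein of the Hippo kinase cascade, in which the Mst and Lats kinases restrain the coactivators Yap and Taz, which bind DNA through TEAD factors. Ankrd1, a cardiac ankyrin repeat protein of the sarcomere and nucleus, is a widely used readout of Yap and TEAD activity, and Fos is an immediate-early gene that rises quickly when tissue is handled or stressed. Where 1 of 2 control samples differs from all other hearts, the mean of the control group moves with that sample.

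The promoters of Ankrd1 and Fos are shown because these are the members whose regulation is best known in heart muscle. Both sequences are from RefSeq on GRCm38.p6 and run 5′ to 3′ on the strand of the gene, starting 250 bases before the annotated start and ending 50 bases after it. The Ankrd1 window lies at chr19:36119795-36120094 on the minus strand, and its capitals mark 2 matches to the TEAD core CATTCC, read on the opposite strand, which begin 210 and 123 bases before the start. The Fos window lies at chr12:85473640-85473939 on the plus strand, and its capitals mark a TATA box, TATAAA, which begins 33 bases before the start.
Ankrd1: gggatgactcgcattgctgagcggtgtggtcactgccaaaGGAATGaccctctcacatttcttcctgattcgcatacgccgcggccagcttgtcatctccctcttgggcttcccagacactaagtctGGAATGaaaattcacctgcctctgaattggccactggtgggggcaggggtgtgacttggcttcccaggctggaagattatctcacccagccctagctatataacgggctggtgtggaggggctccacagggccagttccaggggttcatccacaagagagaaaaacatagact
Fos: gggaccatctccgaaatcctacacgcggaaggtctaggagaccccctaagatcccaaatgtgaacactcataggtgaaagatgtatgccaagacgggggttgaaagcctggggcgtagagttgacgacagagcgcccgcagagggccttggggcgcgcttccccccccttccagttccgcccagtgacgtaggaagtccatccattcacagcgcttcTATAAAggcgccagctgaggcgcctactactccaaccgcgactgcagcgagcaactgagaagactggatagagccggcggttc

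Ankrd1 had a level of 12.78 in Control 1, against 13.75 in Salv CKO 1, 14.06 in Salv CKO 2 and 13.95 in Control 2. Control 1 was 1.14 below the mean of the other 3 samples, and all 3 of its arrays lay below all 9 other arrays. Ankrd1 was among the brightest members, and the Salv CKO and Control samples overlapped, since Control 2 lay between Salv CKO 1 and Salv CKO 2. Fos had a level of 10.32 in Control 1, against 11.24 in Salv CKO 1, 11.61 in Salv CKO 2 and 11.51 in Control 2. Its Control 1 value was 1.14 lower, with Control 2 again between the Salv CKO samples. Foxf2, a forkhead factor that stood beside Ankrd1 in a list of Yap targets, and Ier5, a second immediate-early gene, had no match in their promoters to the 5 motifs searched. The Foxf2 level was 5.65 in Control 1, against 7.15 in Salv CKO 1, 6.73 in Salv CKO 2 and 7.12 in Control 2, and its arrays did not separate. That of Ier5 was 7.72 in Control 1, against 9.32 in Salv CKO 1, 9.39 in Salv CKO 2 and 9.09 in Control 2. The lists as a whole were not lower in this way. Among 23 Yap targets measured, Control 1 lay below the mean of the other 3 in 14, with a median difference of -0.06. Among 27 immediate-early genes it lay below in 13, with a median difference of 0.07. Each list held 2 members.

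In all, 5 short motifs were counted on both strands of the RefSeq promoters, of which 145 lower members had 180 and 43 higher members had 59. CATTCC, the TEAD core, was in 12.8% of the promoters of lower members and 11.9% of those of higher members, against 12.4% of those of genes at level 6 or more and 14.7% of all 32851 promoters. TGACTCA, the AP-1 site bound by Fos and Jun, was in 1.67% of lower and 3.39% of higher members' promoters, against 3.86% at level 6 or more. The TATA box was in 10.6% of lower and 8.47% of higher members' promoters, against 8.09% at that level. The CRE letters TGACGTCA were in 2.22% of lower and 6.78% of higher members' promoters, against 2.8%, and that 6.78% is 4 promoters. The E-box CACGTG was in 5% of lower and 5.08% of higher members' promoters, against 9.44%. Over all promoters the shares were 5.2% for AP-1, 13.6% for the TATA box, 1.79% for CRE and 7.15% for the E-box. The median GC content was 60.3% in lower members and 62.3% in higher members, against 60.3% in genes at level 6 or more. These windows therefore held the TEAD core about as often in members as in other genes of that level, and the letters say nothing of binding.

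The same rule was turned on each of the other samples. With Control 1 as the sample apart it found 228 genes, with Salv CKO 1 it found 17 (12 lower and 5 higher), with Salv CKO 2 it found 7 (5 lower and 2 higher) and with Control 2 it found 19 (11 lower and 8 higher). The number of genes that met the conditions on level and range was 9027 for Control 1, against 7619 for Salv CKO 1, 6823 for Salv CKO 2 and 7130 for Control 2, so the members were 2.53% of those genes for Control 1, against 0.223% for Salv CKO 1, 0.103% for Salv CKO 2 and 0.266% for Control 2. Distances over 0.5 made up 17.4% of those genes for Control 1, against 5.97% for Salv CKO 1, 1.99% for Salv CKO 2 and 3.45% for Control 2. The whole distribution of Control 1 was thus wider, and the 228 genes are its tail. Its median size of distance was 0.231, against 0.156 for Salv CKO 1, 0.11 for Salv CKO 2 and 0.129 for Control 2.

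**Figure D1:**
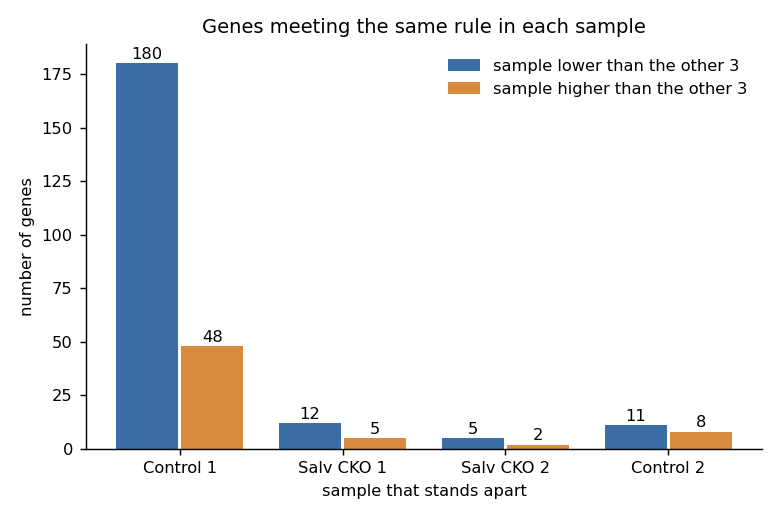
Number of genes (vertical axis) that met the same rule when each of the 4 samples in turn was the one set apart (horizontal axis), split into genes lower (blue) and higher (orange) in that sample. Control 1 had 180 lower and 48 higher genes, and no other sample had more than 12 in either direction.

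Of the 228 members, 78.9% were lower in Control 1. This share depended on the scaling of the arrays. With median centring in place of quantile normalisation, 244 genes met the rule, 164 lower and 80 higher (67.2% lower), and with no normalisation 242 met it, 220 lower and 22 higher (90.9% lower). The median distance of all named genes was 0.21 on the log2 scale with median centring, 0.05 with no normalisation and 0.07 with quantile normalisation, and the distances below are not corrected for it. No member changed the sign of its distance under either scaling. Under both of them 107 members (90 lower and 17 higher) still met the whole rule, and 68 (57 lower and 11 higher) did so under these scalings, with the mean of arrays, with a pseudocount of 16 and with each technical array left out.

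Lower members lay 1.27 below the other samples at the median (quartiles 1.08 and 1.53), with a median level of 6.93 in Control 1, against a median of 8.33 for the mean of the other 3. Higher members lay 1.18 above at the median (quartiles 1.07 and 1.39), with a median level of 8.16 in Control 1, against 7.07. The size exceeded 1.5 in 56 members and 2 in 21, and all 21 were lower in Control 1. The members spanned the range of the arrays, with means of the other 3 samples of 4.45 to 13.9. In the rest of the text a distance is Control 1 minus the mean of the other 3 samples on this log2 scale. The added 1 compresses changes of dim probes, but array noise near the floor can also enlarge them. The largest distances, -5.89 for Slx4 and -3.16 for Dnajb3, came from arrays that disagreed.

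**Figure D2:**
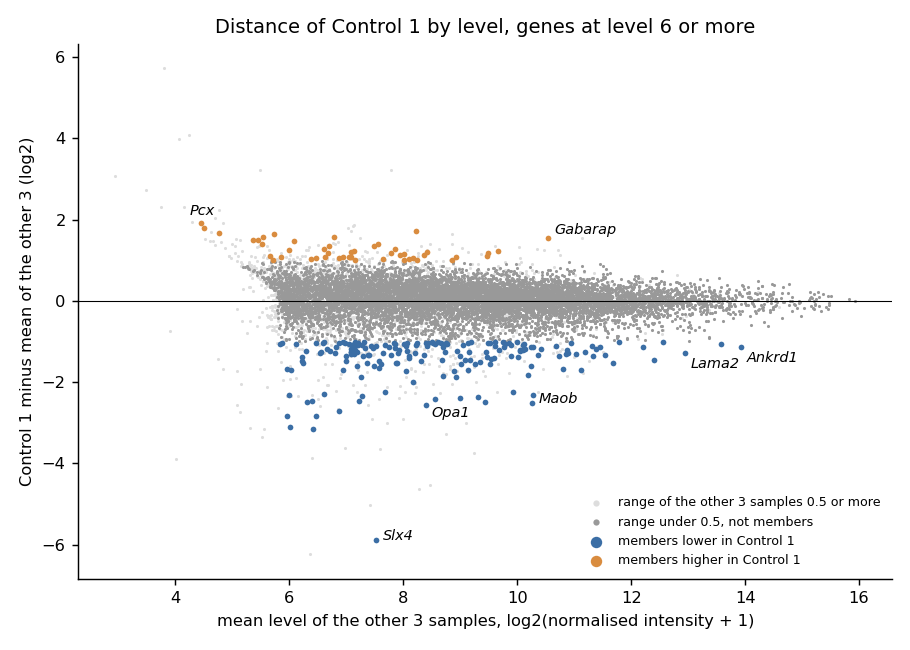
Distance of Control 1 from the mean of the other 3 samples (vertical axis, log2) against that mean (horizontal axis, log2 of normalised intensity + 1) for genes at level 6 or more. Blue points are the 180 lower members and orange points the 48 higher members; dark grey points met the range condition and light grey points did not. Members lie at mean levels between 4.45 and 13.9, and the 21 members over 2 away are all below 0.

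The 3 arrays of a sample show the technical spread of a value. In 217 of 228 members (170 lower and 47 higher) the 3 Control 1 arrays all lay beyond the 9 other arrays. In either direction this held for 28.1% of all named genes and for 4654 of the 11478 genes at level 6 or more. The rule used the medians of the same arrays, so nothing is read from the difference. The median SD of the 3 arrays over members was 0.096 in Control 1, against 0.0826 in Salv CKO 1, 0.0812 in Salv CKO 2 and 0.0998 in Control 2. The arrays separated in all members but Alk, Anks1b, Ccdc149, Chrng, D630023F18Rik, Dnajb3, Foxf2, Hoxc4, Nup98, Pcx and Slx4. The labels name no array batch, and the arrays of a sample follow one another in the numbering of the titles, so array order and sample cannot be told apart.

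Slx4, the scaffold of a set of DNA repair nucleases, had the largest distance and the least agreement between arrays. Its 3 Control 1 arrays read 3.70, 1.62 and 0.12, against 7.95, 7.48 and 0.00 in Salv CKO 1, 7.63, 7.50 and 0.12 in Salv CKO 2 and 0.22, 7.58 and 7.70 in Control 2. In every other sample 1 array read 0.22 or less, which the median of 3 does not show, and the distance of -5.89 rests on those medians. Dnajb3, a DnaJ co-chaperone, read 3.25, 0.12 and 6.53 on the Control 1 arrays, against 6.03 to 6.71 on the other 9, so that 1 Control 1 array lay among the rest. In all, 25 members had arrays of 1 sample that spread over more than 1. They included Nup98, Nek1, Gja3, Papolb, Pcx, 2610044O15Rik8 and Foxo3, whose values stand below.

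Opa1, the dynamin-like protein that fuses inner mitochondrial membranes, had a large distance and close arrays. Its 3 Control 1 arrays read 5.84, 6.04 and 5.84, against 8.55, 8.52 and 8.68 in Salv CKO 1, 8.28, 8.19 and 8.22 in Salv CKO 2 and 8.59, 8.41 and 8.42 in Control 2. In the deposited intensities it averaged 54.3 in Control 1, against 338 in Salv CKO 1, 352 in Salv CKO 2 and 328 in Control 2. The distance of -2.56 is a 5.89-fold lower value on the normalised scale. The arrays of Control 1 and of the other samples were far from meeting.

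**Figure D3:**
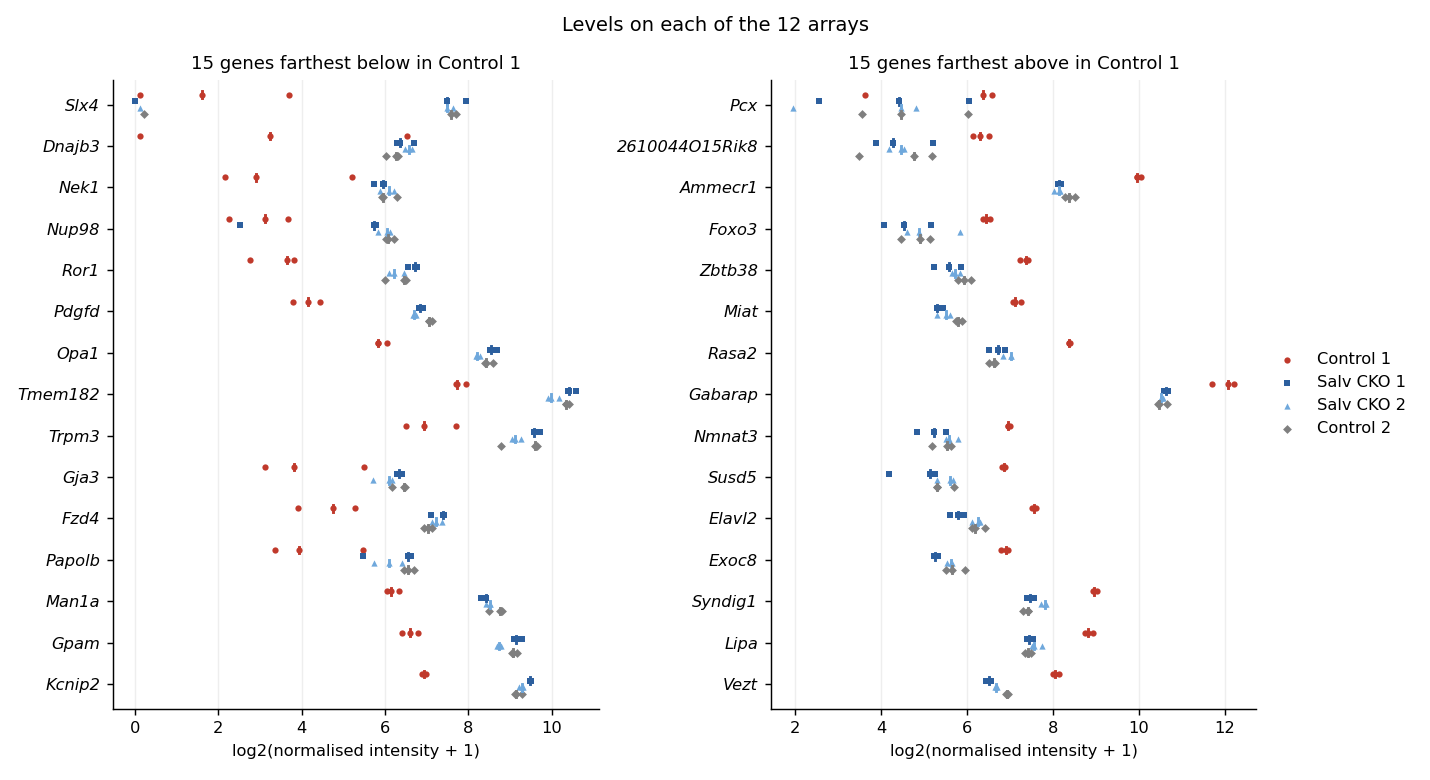
Level on each of the 12 arrays (horizontal axis, log2 of normalised intensity + 1) of the 15 lower genes (left) and the 15 higher genes (right) with the largest distance of Control 1; points are arrays, ticks the median of each sample, and colours and shapes the 4 samples. In Opa1, Tmem182, Gpam, Kcnip2, Ammecr1 and Gabarap the Control 1 arrays lie clear of the other 9, whereas arrays of Slx4, Dnajb3 and Pcx overlap between samples.

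The role groups that follow were assigned by hand after the members were known, and genes named in them beyond the largest distances, the gene lists and the thresholds were chosen after their values were seen. They cover 196 members, and 32 were not grouped. Genes of mitochondria and metabolism numbered 24, of which 21 were lower and 3 higher. Gpam, which catalyses the first step of glycerolipid synthesis at the mitochondrial outer membrane, had a level of 6.60 in Control 1, against 9.15 in Salv CKO 1, 8.74 in Salv CKO 2 and 9.07 in Control 2. Maob, the monoamine oxidase of the outer membrane, stood at 7.95 in Control 1, against 10.36 in Salv CKO 1, 10.07 in Salv CKO 2 and 10.38 in Control 2. Slc25a36, a mitochondrial carrier of pyrimidine nucleotides, had 7.69 in Control 1, against 10.03 in Salv CKO 1, 9.87 in Salv CKO 2 and 9.86 in Control 2. In these genes Control 2 lay beside both Salv CKO samples, and Control 1 was more than 2 below all of them. Plpbp, a pyridoxal phosphate binding protein, was at 6.17 in Control 1, against 7.86 to 8.33 in the other samples. Fdps, which makes farnesyl pyrophosphate in the mevalonate pathway, was at 5.83 in Control 1, against 6.87 to 7.34 in the other samples, and Arg2, the mitochondrial arginase, at 4.76 in Control 1, against 6.02 to 6.46 in the other samples. Foxred1, an assembly factor of respiratory complex I, was at 9.66 in Control 1, against 10.80 to 10.99 in the other samples. The 3 higher genes were Cdo1, Nmnat3 and Pcx. Cdo1, the cysteine dioxygenase that starts taurine synthesis, stood at 8.28 in Control 1, against 6.94 to 7.22 in the other samples. Nmnat3, which makes NAD, stood at 6.96 in Control 1, against 5.22 to 5.57 in the other samples. Pcx, pyruvate carboxylase, was dim, with array values in Control 1 of 3.61, 6.57 and 6.36, against 1.94 to 6.05 on the other 9 arrays, so 1 of its Control 1 arrays lay among the rest.

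All 11 members with roles in muscle structure or muscle cells were lower in Control 1. Tmem182, a membrane protein of striated muscle, had a level of 7.73 in Control 1, against 10.43 in Salv CKO 1, 9.98 in Salv CKO 2 and 10.36 in Control 2. Svil, the membrane-linked actin binding protein supervillin, had 9.14 in Control 1, against 10.97 in Salv CKO 1, 10.59 in Salv CKO 2 and 10.86 in Control 2. Nebl, nebulette of the cardiac Z-disc, had 8.18 in Control 1, against 9.81 in Salv CKO 1, 9.40 in Salv CKO 2 and 9.56 in Control 2. These genes were between 1.41 and 2.52 lower and their other 3 samples lay close together. Ctnna3, the alpha-T-catenin of intercalated discs, was at 6.12 in Control 1, against 7.16 to 7.25 in the other samples. Camk2d, the main cardiac calcium/calmodulin kinase, was at 5.77 in Control 1, against 6.90 to 7.20 in the other samples, and Emd, emerin of the nuclear envelope, at 8.95 in Control 1, against 9.89 to 10.32 in the other samples. Capns1, the small calpain subunit, was at 11.54 in Control 1, against 12.46 to 12.70 in the other samples. Of the remaining 4, Ankrd1 is given above, Fbxo40 and Klhl38, which are expressed in muscle, lay 1.45 and 1.07 below, and Chrng, the fetal gamma subunit of the acetylcholine receptor, had arrays that did not separate. Lists of heart muscle genes gave a mixed picture. Among 23 sarcomere and Z-disc genes measured, Nebl and Ankrd1 were the members, the median distance of the list was 0.01 and Control 1 lay below the other mean in 11. Their summed intensity, on a linear scale, was lowest in Control 1, at 343325, against 350561 in Salv CKO 1, 363623 in Salv CKO 2 and 358144 in Control 2. Control 1 lay below in all 4 ventricular genes, at a median distance of -0.15 and with no member. It lay below in 12 of 18 intercalated disc genes, at a median of -0.06. Tnnt2, cardiac troponin T, stood at 14.99 in Control 1, against 15.31 in Salv CKO 1, 15.14 in Salv CKO 2 and 15.16 in Control 2, and Nppa, the atrial natriuretic peptide, at 14.95 in Control 1, against 14.68 in Salv CKO 1, 14.74 in Salv CKO 2 and 14.81 in Control 2.

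Ion channels and transporters gave 10 members, 7 lower and 3 higher. Kcnip2, the KChIP2 subunit that shapes the transient outward potassium current of heart muscle, had a level of 6.93 in Control 1, against 9.49 in Salv CKO 1, 9.28 in Salv CKO 2 and 9.14 in Control 2. Kcnj3, a subunit of the atrial acetylcholine-gated potassium channel, had 6.09 in Control 1, against 7.64 in Salv CKO 1, 7.61 in Salv CKO 2 and 7.45 in Control 2. Trpm3, a cation channel of the TRP family, had 6.94 in Control 1, against 9.59 in Salv CKO 1, 9.13 in Salv CKO 2 and 9.60 in Control 2. All 3 genes were lower in Control 1 by 1.47 to 2.50 on these probes, although another bright probe of Trpm3 had a distance of -0.47. Gja3, a connexin best known from the lens, was at 3.81 in Control 1, against 6.10 to 6.47 in the other samples, with Control 1 arrays of 3.81, 3.13 and 5.50. Kcnt2, a sodium-activated potassium channel, was at 4.29 in Control 1, against 5.70 to 6.12 in the other samples. The higher genes were Cnnm4, Slc9a3r1, the scaffold NHERF1, and Wnk4, a kinase that regulates chloride transport; Wnk4 stood at 7.88 in Control 1, against 6.28 to 6.78 in the other samples. Of 24 calcium handling and ion channel genes in the list used, Kcnj3 alone was a member.

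The largest group held 31 receptors, ligands and pathway components, with 25 lower and 6 higher. Fzd4, a frizzled that binds Wnts and norrin, had a level of 4.75 in Control 1, against 7.39 in Salv CKO 1, 7.22 in Salv CKO 2 and 7.04 in Control 2. Ror1, a receptor for Wnt5a, had 3.64 in Control 1, against 6.73 in Salv CKO 1, 6.23 in Salv CKO 2 and 6.45 in Control 2. Apc, a scaffold of the complex that degrades beta-catenin, was at 5.94 in Control 1, against 7.12 to 7.58 in the other samples. All 3 were lower in Control 1 on these probes. The second probe of Fzd4 stood at 5.74 in Control 1, against 4.82 to 5.48 in the other samples. A separate list of 34 Wnt, TGF-beta, BMP and IGF genes, which does not include Fzd4, Ror1 or Apc, held no member. Dact3, a Dishevelled binding protein, was higher, at 9.86 in Control 1, against 8.69 to 9.15 in the other samples. Among ligands, Pdgfd, which activates PDGF receptor beta, had 4.16 in Control 1, against 6.84 in Salv CKO 1, 6.69 in Salv CKO 2 and 7.07 in Control 2. Its arrays separated by more than 2, with 4.16, 3.80 and 4.45 in Control 1. Ptn, the heparin-binding factor pleiotrophin, was at 11.07 in Control 1, against 11.99 to 12.49 in the other samples. Bmp5 and Gdf2, ligands of the BMP family, were dimmer, at 5.54 in Control 1, against 6.33 to 6.80 in the other samples, and at 5.06 in Control 1, against 6.06 to 6.20 in the other samples. Nr3c2, the mineralocorticoid receptor, was at 6.72 in Control 1, against 7.81 to 8.06 in the other samples. Wasf2 and Nckap1, which belong to the WAVE complex that drives actin branching, were both lower, Nckap1 by 1.13, and Ssh2, a cofilin phosphatase, was 2.34 lower. Strn, striatin, a regulatory subunit of protein phosphatase 2A, was at 5.83 in Control 1, against 7.32 to 7.46 in the other samples. Rasa2, a GTPase-activating protein for Ras, was the higher gene farthest apart in this group, at 8.37 in Control 1, against 6.73 in Salv CKO 1, 7.02 in Salv CKO 2 and 6.62 in Control 2. Vezt, vezatin of adherens junctions, was also higher, at 8.04 in Control 1, against 6.51 to 6.93 in the other samples.

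Phosphodiesterases, kinases and phosphatases gave 7 lower genes and 1 higher gene. Ppp2r1a, the scaffold subunit of protein phosphatase 2A, had a level of 10.95 in Control 1, against 12.60 in Salv CKO 1, 12.29 in Salv CKO 2 and 12.32 in Control 2. Pde3a, a cyclic nucleotide phosphodiesterase that limits contractility in heart muscle, had 5.23 in Control 1, against 6.90 in Salv CKO 1, 7.02 in Salv CKO 2 and 6.89 in Control 2. Nek1, a kinase linked to cilia and DNA damage, was at 2.91 in Control 1, against 5.95 to 6.11 in the other samples, with Control 1 arrays of 5.21, 2.91 and 2.17. The first of these was bright on all arrays, whereas Nek1 lay near the floor of 6. Pik3r4, the regulatory subunit of the class III lipid kinase Vps34, was the higher gene, at 9.06 in Control 1, against 7.79 to 8.12 in the other samples.

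The secretory pathway, endosomes, lysosomes and autophagy accounted for 22 members, 18 lower and 4 higher. Man1a, a Golgi mannosidase that trims N-glycans, had a level of 6.15 in Control 1, against 8.42 in Salv CKO 1, 8.52 in Salv CKO 2 and 8.76 in Control 2. Rab7, the GTPase of late endosomes, had 8.37 in Control 1, against 10.33 in Salv CKO 1, 10.11 in Salv CKO 2 and 10.13 in Control 2. Gorasp2, which links Golgi stacks, was at 7.46 in Control 1, against 8.90 to 9.16 in the other samples, and Ergic3, a cargo receptor between endoplasmic reticulum and Golgi, at 9.93 in Control 1, against 11.12 to 11.31 in the other samples. These genes of the early and late pathway were lower together in Control 1, in a group assembled from the members themselves. The 4 higher genes were Gabarap, Lipa, Emc10 and Exoc8. Gabarap, an Atg8 family protein of the autophagosome, had arrays of 12.08, 12.23 and 11.71 in Control 1, against 10.58, 10.64 and 10.68 in Salv CKO 1, 10.53, 10.56 and 10.52 in Salv CKO 2 and 10.47, 10.66 and 10.46 in Control 2. It was 2.91-fold higher in Control 1 and the brightest of the higher members. Lipa, the lysosomal acid lipase, stood at 8.82 in Control 1, against 7.43 to 7.55 in the other samples, and Emc10, of the membrane protein insertion complex, at 9.14 in Control 1, against 7.74 to 8.00 in the other samples. Exoc8 was at 6.91 in Control 1 on the member probe, against 5.25 to 5.66 in the other samples. Its second probe went the other way, at 4.08 in Control 1 and a distance of -2.05, so the direction of Exoc8 is not settled. Exoc4, another exocyst subunit, was lower in Control 1, at 9.90, against 10.91 to 10.97 in the other samples.

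Ubiquitin, proteasome and folding genes gave 12 lower and 3 higher members. Psmb7, a catalytic subunit of the proteasome, had a level of 9.43 in Control 1, against 11.34 in Salv CKO 1, 11.10 in Salv CKO 2 and 10.92 in Control 2. Cct3, a subunit of the cytosolic chaperonin, had 9.96 in Control 1, against 11.57 in Salv CKO 1, 11.15 in Salv CKO 2 and 11.26 in Control 2. Both were bright on every array. Usp8, an endosomal deubiquitinase, lay just inside the distance threshold. Cul9, Rnf126 and Rnf152, which belong to ubiquitin ligases, were higher by 1.17, 1.05 and 1.03.

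Extracellular matrix genes gave 10 lower members and 1 higher. Lama2, the laminin chain of muscle basement membranes, had a level of 11.66 in Control 1, while Salv CKO 1 had 12.94, Salv CKO 2 had 12.91 and Control 2 was just above both. Aspn, the small proteoglycan asporin, had 10.20 in Control 1, against 11.63 in Salv CKO 1, 11.47 in Salv CKO 2 and 11.54 in Control 2. Aebp1, a collagen-binding matrix protein, had 7.04 in Control 1, against 9.09 in Salv CKO 1, 8.71 in Salv CKO 2 and 8.95 in Control 2. Lama2 was lower by 1.30 and was one of the brightest members. The collagen chains Col4a5 and Col6a6 were at 9.57 in Control 1, against 10.57 to 10.79 in the other samples, and at 6.42 in Control 1, against 7.38 to 7.70 in the other samples. P4ha3, a collagen prolyl hydroxylase subunit, was at 4.33 in Control 1, against 5.84 to 6.22 in the other samples. Susd5 was higher, at 6.85 in Control 1, against 5.14 to 5.61 in the other samples. None of 36 fibroblast and matrix markers in the list used was a member. The summed intensity of that list, on a linear scale, was 163262 in Control 1, against 160135 in Salv CKO 1, 172202 in Salv CKO 2 and 172839 in Control 2. Such sums weigh the brightest genes most.

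Transcription and chromatin genes numbered 25, with 16 lower and 9 higher. Besides Fos, Ier5 and Foxf2, the lower members included Irf1, an interferon regulatory factor, at 10.19 in Control 1, against 11.22 to 11.63 in the other samples. Egln1, the oxygen sensor that hydroxylates HIF, was at 9.11 in Control 1, against 10.11 to 10.41 in the other samples. Gsc, Gsx1, Uncx, Pitx3 and Hoxc4, homeobox genes known from other tissues of the embryo, were lower by 1.00 to 1.38, at mean levels of the other samples of 6.82 to 10.01. Foxo3, a forkhead factor of the stress and atrophy response, was higher, at 6.44 in Control 1, against 4.52 in Salv CKO 1, 4.89 in Salv CKO 2 and 4.90 in Control 2, although 1 array of Salv CKO 2 reached 5.84. Zbtb38, a zinc finger protein that binds methylated DNA, had 7.38 in Control 1, against 5.57 in Salv CKO 1, 5.71 in Salv CKO 2 and 5.92 in Control 2. Gata2, a factor of blood and endothelial cells, was at 8.98 in Control 1, against 7.64 to 7.98 in the other samples, Hsf2, a heat shock factor, at 9.49 in Control 1, against 8.13 to 8.53 in the other samples, and Kdm6b, a histone demethylase, at 7.94 in Control 1, against 6.65 to 7.11 in the other samples.

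Genes of RNA processing and translation split into 7 lower and 5 higher. Eif2s1, the alpha subunit of initiation factor eIF2, was at 5.92 in Control 1, against 7.52 to 7.64 in the other samples. Larp4, an RNA-binding protein that stabilises messenger RNA, was at 9.04 in Control 1, against 10.25 to 10.45 in the other samples. Papolb, a poly(A) polymerase of the testis, was at 3.94 in Control 1, against 6.10 to 6.55 in the other samples, with 1 Control 1 array at 5.47. The higher genes included Pop4, a subunit of the RNase P and RNase MRP complexes, at 10.91 in Control 1, against 9.60 to 9.73 in the other samples, and Tcof1, treacle, which promotes transcription of ribosomal RNA, at 9.61 in Control 1, against 8.31 to 8.55 in the other samples. Miat, a long non-coding RNA, stood at 7.11 in Control 1, against 5.29 to 5.78 in the other samples. Elavl2, a neuronal RNA-binding protein, stood at 7.55 in Control 1, against 5.80 to 6.25 in the other samples. Nuclear pore, DNA repair and chromosome genes were lower in all 7 cases, among them Smc1a, a cohesin subunit, at 8.19 in Control 1, against 9.37 to 9.54 in the other samples, and Nup98, a nucleoporin, with Control 1 arrays of 2.25, 3.13 and 3.68 and 1 Salv CKO 1 array at 2.52.

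Of 13 genes of immune and blood cells, 10 were lower and 3 higher. Cd68, a lysosomal protein of macrophages, had a level of 7.31 in Control 1, against 8.44 in Salv CKO 1, 8.34 in Salv CKO 2 and 8.47 in Control 2. Cd163, the haemoglobin scavenger receptor of tissue macrophages, had 8.36 in Control 1, against 6.93 in Salv CKO 1, 7.17 in Salv CKO 2 and 7.31 in Control 2. These macrophage markers thus lay in opposite directions in Control 1. The summed linear intensity of the 16 macrophage markers was 10630 in Control 1, against 11223 in Salv CKO 1, 12367 in Salv CKO 2 and 12010 in Control 2. In a whole heart fewer cells of a type and less RNA per cell cannot be told apart. Cd74, the invariant chain of MHC class II, was at 6.84 in Control 1, against 7.81 to 8.22 in the other samples, with Control 1 arrays of 2.52, 6.84 and 7.03. Sele, E-selectin of activated endothelium, was at 6.71 in Control 1, against 7.58 to 8.01 in the other samples, and Retnlg, a resistin-like gene of neutrophils, at 7.25 in Control 1, against 5.79 to 6.23 in the other samples. C8b, a complement component, had the second highest level among the lower members, at 12.52 in Control 1, against 13.40 to 13.87 in the other samples.

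Probes named for 4 olfactory or vomeronasal receptors (Olfr558, Olfr123, Vmn1r51 and Olfr30) and for 3 microRNA genes (Mir677, Mir335 and Mir485) were also lower in Control 1. Mir677 was at 3.68 in Control 1, against 5.93 to 6.03 in the other samples. The files give a gene symbol alone, so these probes were not assigned to a mature arm. Among the 32 members that were not grouped, 22 were lower and 10 higher. Ammecr1 was higher, with close arrays of 9.96, 10.06 and 9.96 in Control 1, against 8.15, 8.11 and 8.20 in Salv CKO 1, 8.15, 8.03 and 8.16 in Salv CKO 2 and 8.51, 8.38 and 8.28 in Control 2. Syndig1 was at 8.95 in Control 1, against 7.41 to 7.81 in the other samples, and 2610044O15Rik8 at 6.29 in Control 1, against 4.27 to 4.76 in the other samples.

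Members were also counted in 42 lists of pathways and cell type markers, chosen with earlier results of these data known. The lists held 754 measured genes, 626 of them at level 6 or more, and 16 of those 626 were members, which is 2.56%, against 1.99% of all genes at that level. They were Ankrd1, Foxf2, Nebl, Ctnna3, Kcnj3, Fos, Ier5, Irf1, Cd74, Sele, Cd68, Cd163, Retnlg, Fdps, Kdm6b and Foxo3. No list had more than 2 members and 29 had none. The 26 genes of the Hippo core had none. At the median they lay 0.21 above the other samples, against 0.07 for all named genes, with Control 1 below the other mean in 7. The members were therefore spread over many functions, and their share in the lists was near that of all genes at the same level.

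Some lists lay off centre in Control 1 without holding members. The 26 genes of the G2 and M phases lay 0.28 below the other samples at the median, lower in 22, where all named genes lay 0.07 above. Salv CKO exceeded Control in all 26, against 8343 of 17742 named genes. Control 1 enters that difference, and none of the 26 had an adjusted p under 0.05 (limma). The 25 markers of adipocytes and brown fat lay 0.34 above, and their summed linear intensity was 66748 in Control 1, against 53074 in Salv CKO 1, 47266 in Salv CKO 2 and 57021 in Control 2. The 14 epicardial and mesothelial genes lay 0.34 above and the 11 cytosolic ribosome genes 0.32 above. The 19 genes of lung, liver and airway lay 0.63 below at the median, with Control 1 below the other mean in 13. They had a summed linear intensity of 2467 in Control 1, against 4530 in Salv CKO 1, 2192 in Salv CKO 2 and 10137 in Control 2, so Control 2 was the highest. Of the sex chromosome genes 2 were measured. Kdm5d, a Y-linked demethylase, was dim and spread, at 2.66 in Control 1, against 5.02 in Salv CKO 1, 3.66 in Salv CKO 2 and 5.24 in Control 2, and Xist was at 6.53 in Control 1, against 6.18 to 6.82 in the other samples. The part of these differences in the distances of the members was not tested.

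A second probe gives a reading that the rule did not use. Other probes on the array measured 39 members with 48 probes, and 189 members had 1 probe. A probe was counted as apart when its Control 1 level lay 0.5 or more away from the mean of the other 3 samples and beyond each of them. For lower members, 15 of 41 other probes were also lower, against 21.9% of all 2635 other probes, 8 were higher and 18 were not apart. For higher members, 3 of 7 were also higher, against 16.2% of all other probes, 1 was lower and 3 were not apart. Among probes at level 6 or more, 9 of 19 were lower with the member, against 25.3% of such probes. Among dimmer probes 6 of 22 were lower with the member, against 19.1%. The median distance of the other probes of lower members was -0.06 over all 41. It was -0.47 at level 6 or more and 0.10 under that level. These probes share the RNA and the arrays of the member, and no test was made on so few.

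In 4 genes chosen after their values were seen, the distances of bright probes were close. Egln1 had a second probe at 8.76 in Control 1, against 9.88 in Salv CKO 1, 9.75 in Salv CKO 2 and 9.80 in Control 2, a distance of -1.05 beside -1.14. Foxred1 had a second probe at 8.94 in Control 1, against 10.16 in Salv CKO 1, 10.21 in Salv CKO 2 and 10.27 in Control 2, and Larp4 one at 8.13 in Control 1, against 9.27 in Salv CKO 1, 9.30 in Salv CKO 2 and 9.38 in Control 2. For these genes and for Ppp4r1, a subunit of protein phosphatase 4, both probes placed Control 1 more than 1 below the mean of the other 3 samples. Other bright probes of the same direction had unlike distances, such as -0.69 beside -1.27 for Spin1, 0.58 beside 1.19 for Gata2 and -2.18 beside -1.54 for Fv1. Both other probes of Cd74 and of Fv1, a retrovirus restriction gene, were lower, at -1.44 and -1.79 for Cd74 and with -1.67 on the dimmer one of Fv1. Plpbp had one at -1.76 and one at 0.14, and Snx7, a sorting nexin, one at -0.66 and one at -0.22. Klk11, Spin1, Uncx, Gata2, Rnf152 and Zfp329 also had a probe apart in the direction of the member. Those of Klk11 and Zfp329 were dim, at no more than 3.63 in any sample.

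Elsewhere the probes of a gene disagreed. Exoc8 was 1.40 higher in Control 1 on the member probe, while its second probe, which was brighter in the other 3 samples (mean 6.13, beside 5.51 on the member probe), stood at 4.08 in Control 1, against 6.24 in Salv CKO 1, 5.95 in Salv CKO 2 and 6.18 in Control 2. Ranbp6, an importin-related gene, was 1.61 lower, while its second probe stood at 6.44 in Control 1, against 5.51 in Salv CKO 1, 5.78 in Salv CKO 2 and 5.60 in Control 2. Scarb2, a lysosomal membrane protein, was 1.05 lower, while its second probe stood at 7.80 in Control 1, against 6.56 in Salv CKO 1, 7.20 in Salv CKO 2 and 7.63 in Control 2. In each of these cases the second probe lay on the other side of the remaining samples. Opposite distances were also found for 1600014C10Rik, 1700030J22Rik, Abi3bp, Irf1 and Olfr30. Those probes of 1700030J22Rik, Irf1 and Olfr30 were dim, at no more than 4.66 in any sample. Of the 3 other probes of Trpm3, 1 was opposite and 1 went with the member, and both were dim. The bright one, at 6.94 in Control 1, had a distance of -0.47 and was not apart, beside -2.50 on the member probe. Second probes of Aldh6a1 and Col4a5 were bright and close to 0, at -0.09 and -0.12. Those of 2310079G19Rik, Aebp1, Ccdc177, Col6a6, Fzd4, Gabbr1, Ier5, Pdzd8, Phf11d, Sbf2, Sin3b, Slc12a3 and Wnk4 were not apart, and Dcaf17 had 1 of 4 apart. In all, 18 of the 48 other probes were thus apart in the direction of the member, which does not mean a like distance. Among all other probes 21.9% were lower and 16.2% higher in Control 1 by the same count.

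**Figure D4:**
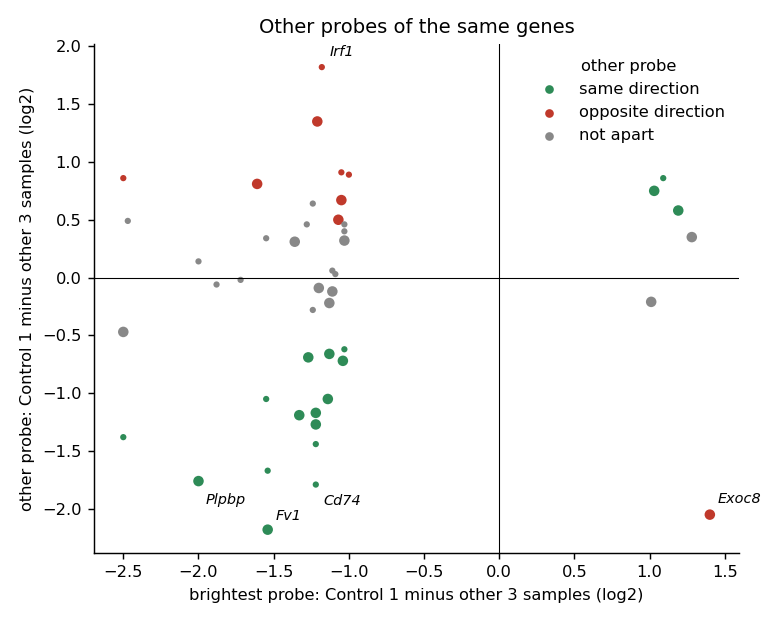
Distance of Control 1 on the other probes of 39 members (vertical axis, log2) against the distance on the brightest probe (horizontal axis, log2); large points are probes at level 6 or more, green points are apart in the member's direction, red points in the opposite direction and grey points not apart. Of the 48 probes 18 are green, 9 red and 21 grey, with Cd74, Fv1 and Plpbp among the green and Exoc8 and Irf1 among the red.

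The comparison of Salv CKO with Control holds Control 1 in its control group, so the members' differences follow from their choice. The median Salv CKO minus Control difference was 0.63 for the 180 lower members, positive in all 180, and -0.62 for the 48 higher members, negative in all 48, against -0.02 for all named genes. Without Control 1 the medians were -0.05 and -0.01, with 73 of 180 and 22 of 48 positive. Tmem182 had a difference of 1.16 with a standard error of 0.95 (adjusted p = 0.998, limma). Ankrd1 had one of 0.54 with a standard error of 0.46 (adjusted p = 0.998, limma), and Gabarap one of -0.69 with a standard error of 0.60 (adjusted p = 0.998, limma). Each difference was less than 2 times its standard error, and in each gene the 2 Control samples lay farther apart than the group means.

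No member passed the limma test, with 2 samples against 2. At an adjusted p under 0.05 the count was 0 of 228, against 0% of all 26423 probes. At an unadjusted p under 0.05 it was 0 of 228, against 3.96% of all probes and 1.34% of genes at level 6 or more. The smallest unadjusted p of a member was 0.08. The Salv CKO and Control samples did not overlap in 57 of 228 members (25%), against 29.8% of all named genes. The rule used the sample values that enter this contrast, so nothing is read from these shares. The p-values measure the spread between 2 samples per group, for which the labels do not say whether hearts were pooled.

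**Figure D5:**
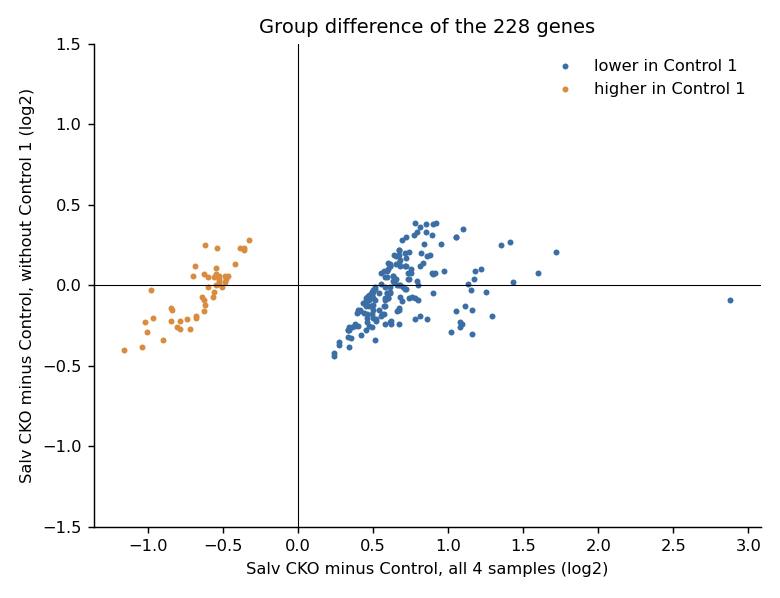
Salv CKO minus Control difference of the 228 members without Control 1 (vertical axis, log2) against the difference with all 4 samples (horizontal axis, log2); blue points are lower and orange points higher in Control 1. All blue points are right of 0 and all orange points left of it, whereas on the vertical axis both colours lie on both sides of 0.

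The thresholds run through a continuum. Just inside the distance of 1 were Usp8 at -1.001, Mir485 at -1.002 and Pitx3 at -1.003, and just outside were Top2a at -1, Dapk3 at -0.999 and Mpdz at -0.996. On the higher side Cnnm4 at 1.005, Sin3b at 1.007 and Gabbr1 at 1.011 were inside, and Pfkp at 0.976, Gria3 at 0.972 and Sec23ip at 0.971 were outside. By the range of the other 3 samples, Ptn and 2610044O15Rik8 at 0.497 and Ror1 at 0.495 were inside, and Hmgn2 at 0.501, Mir92b at 0.503 and Jph2 at 0.504 were outside. Level and distance alone were met by 543 genes, so the range removed more than it kept. Mob1a, a Hippo cascade gene, was at 5.60 in Control 1, against 7.72 in Salv CKO 1, 7.13 in Salv CKO 2 and 7.22 in Control 2, and its range of 0.59 in the other samples kept it out.

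Position in the genome and probe set were also compared. All 228 members could be placed among 17710 genes, and 4 pairs of members were direct neighbours. Rasa2 and Zbtb38 were both higher in Control 1, Mmadhc and Rnd3 both lower, and Cd74 with Tcof1 and Pik3r4 with Col6a6 lay in opposite directions. By the start of the probe name, members were 2% of genes at level 6 or more on PH_mM probes, 1.72% on mMC probes and 3.58% on mMR probes. Of 6046 probes with no gene symbol, 57 met the same rule, 47 lower and 10 higher, so the lower direction prevailed there too.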

How the data were processed

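RNA of 4 heart samples (2 Salv CKO and 2 Control) was hybridised to 12 one-colour Cy5 arrays, 3 per sample. The deposited values are intensities of 26423 probes, whole numbers between -10 and 65474, of which 2.59% were below 0; the scanner, background method and normalisation are not stated in the sources used here. Array medians were 58 to 88. The number of samples limits the precision.

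The 12 arrays were quantile normalised (limma 3.58.1, R 4.3.3), negative values were raised to 0.0833, the smallest value above 0, before log2(value + 1). The median of 3 arrays stood for a sample. Probes with a symbol numbered 20377 (18213 matched by RefSeq symbol, 2126 by synonym, 38 unmatched) and 6046 had none; a gene was read by its brightest probe. Salv CKO was set against Control with limma's lmFit and eBayes over all probes with Benjamini-Hochberg adjustment, checked on simulated data. Tables and plots were made with pandas 2.3.3 and matplotlib 3.10.9.

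The members and lists were chosen with earlier results of these data known. Genes were named by rule: Sav1, members in a list, the 15 largest distances in each direction, the 3 genes on each side of the thresholds, and members with other probes; role groups were added after the values were seen. Alternatives covered scaling, array summary, pseudocount, dim probes, thresholds, left-out arrays and samples, a replicate block and an array-level fit. The replicate numbers come from sample titles; the deviations of same-numbered samples from their group means correlated at -0.2, so the numbers were not taken to pair samples. RefSeq promoters are on GRCm38.p6.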

Additional observations from a re-analysis of the deposited data

How the results depend on the processing

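The number of probes at an adjusted p under 0.05 in limma, 0 of 26423, became 4 (3 higher and 1 lower in Salv CKO) with median centring and 61 (34 higher and 27 lower) when the 12 arrays entered with the sample as a random block, and none of these was a member. It was 0 under the other alternatives run and with any 1 sample left out, where 733 to 2543 probes had an unadjusted p under 0.05; a lone sample is then assumed to vary like the other group. With the replicate block it was 0, with 799 probes at an unadjusted p under 0.05, and the median differences of lower and higher members stayed at 0.63 and -0.62. With the numbers crossed, an alternative chosen after seeing the data, it was 0, with 1394. The number of members was 138 with a level floor of 8, 466 with a distance over 0.8 and 111 with the strictest distance limit tried. The other alternatives gave 154 to 333, and 222 to 243 with 1 technical array of every sample left out, of which 176 to 177 were among the 228. The rule needs all 4 samples, so it was not run with 1 left out. The median Salv CKO minus Control difference of lower members reversed to -0.0459 without Control 1, and over samples left out it was -0.0459 to 1.248; that of higher members was -1.175 to -0.0147. Members with all 3 Control 1 arrays apart numbered 215 to 217, and other probes apart in the member's direction 14 to 18 of 48. Dim probes limit what can be read: 25 members had arrays of a sample that spread over more than 1.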
